A study of Mus musculus with 6 samples.

Results

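Transcripts of genes that carry newly made proteins into the endoplasmic reticulum (ER) and onward to the Golgi were compared between baicalin-treated and control cells. The genes were taken from the deposited table by their symbols alone: the signal recognition particle and its receptor (Srp and Srpr genes), the Sec61 channel with Sec62 and Sec63, the translocon-associated protein complex (Ssr1 to Ssr4), the signal peptidase (Sec11a, Sec11c and Spcs1 to Spcs3), the COPII coat (Sar1, Sec13, Sec16, Sec23, Sec24 and Sec31 genes), the COPI coat (Cop genes), the p24 cargo adaptors (Tmed genes) and the Sec22 proteins. The rule gave 61 of the 54532 genes in the table, and 2 further symbols marked as pseudogenes were left out. The rule used no measured value, but the genes were chosen with earlier results of these data known. Arcn1, the delta subunit of COPI, has a symbol outside the rule and is given beside the COPI genes.

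The samples were wild-type cells of the mouse 3T3 line labelled as adipocytes, 3 given DMSO, the solvent control, and 3 given 200 µM baicalin, a flavone glucuronide of the plant Scutellaria baicalensis. The series title names lipid accumulation in adipocytes as its subject, and the comparison asks which transcripts differ between baicalin and DMSO. 3T3 lines are fibroblasts from mouse embryos, some of which can be turned into fat cells in culture. Neither the subline nor the course of differentiation nor the length of treatment is stated in the sources used here. The labels do not tie the 3 samples per group to separate cultures, and the p-values therefore rest on a spread among samples that may be purely technical.

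Proteins for secretion or for membranes are caught at the ribosome by the signal recognition particle, brought to its receptor on the ER membrane and threaded through the Sec61 channel, where the signal peptidase cuts off the signal sequence. COPII-coated vesicles carry the folded proteins from the ER toward the Golgi, and COPI-coated vesicles return escaped ER proteins and recycled cargo receptors. In fat cells this route delivers secreted hormones and lipases, and in fibroblasts it delivers collagen. Several of these genes are known targets of the unfolded protein response, in which Xbp1 and Atf6 act as transcription factors.

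Poly-A RNA was read to between 16730594 and 18326874 counted reads per library. The DMSO libraries had reads for 21020 to 21374 genes and the baicalin libraries for 19057 to 19833, and mitochondrial transcripts took 1.60% to 1.87% of reads against 1.26% to 1.36%. Of 9 fat cell markers, 6 of the 7 that could be tested (85.7%) were lower in baicalin, against 34.1% of all genes tested. The seventh, Cebpa, was scarce and was not called, though its baicalin libraries lay above its DMSO libraries (log2 fold change 0.68). The summed level of the 9 markers lay between 1804 and 1978 CPM in DMSO and between 803 and 817 CPM in baicalin. Most of that sum came from Lpl and Fabp4 in both groups. Lpl had 491 ± 8.06 CPM in baicalin against 1443 ± 79.6 CPM in DMSO (SD, n = 3), while Lep and Slc2a4 were near 0 in both groups, with means of at most 0.0919 CPM, under the 0.164 to 0.179 CPM that 3 reads are worth in these libraries. Of 8 fibroblast markers, 5 (62.5%) were lower and 3 (37.5%) higher. Their sum fell between 17928 and 18588 CPM in DMSO and between 15478 and 15831 CPM in baicalin. Macrophage markers summed to at most 4.89 CPM, endothelial markers to at most 0.548 CPM and epithelial markers to at most 0.0572 CPM in any library. The part that these shifts have in the results was not tested, and fewer cells of a type cannot be told apart from less RNA per cell in bulk samples.

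The ER entry and vesicle coat genes were mostly higher in baicalin. Levels are given in CPM (reads of a gene over all counted reads, on the usual scale) scaled by TMM factors, which level the libraries on the assumption that the bulk of genes does not differ. A log2 change is the log2 fold change of baicalin against DMSO, with its standard error (SE). A gene is called where edgeR's quasi-likelihood test gave a Benjamini-Hochberg adjusted p under 0.05 over all 13728 genes tested, and every adjusted p of a gene below is of that kind unless another tool is named. Library values follow the order of the replicates, DMSO first and then baicalin. Of the 61 genes 59 could be tested, of which 39 were called higher, 7 lower and 13 neither. Among all genes tested 67.7% were called, 33.6% higher and 34.1% lower, whereas of the 59 genes 66.1% were higher and 11.9% lower. With that many genes called, the assumption behind the TMM factors may not hold, so scaling by library totals is given below as well. Among the 9047 genes with at least 10 CPM, 41.8% were higher and 33.9% lower. The median log2 fold change of the 59 genes was 0.27, against 0.0014 over all genes tested. For 45 of the 59 the DMSO and baicalin libraries did not overlap, 38 of them with baicalin above, where 70.2% of all genes tested did not overlap and 35.1% did so with baicalin above.

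The changes were small in fold. Only Sec31b was called with a change of at least 2-fold, as were 15% of all genes tested. Summed over the 61 genes, the level was 6275, 6279 and 6236 CPM in DMSO and 7896, 7775 and 7838 CPM in baicalin, 1.25-fold higher. As a plain share of the reads, without TMM, they took 0.651% to 0.656% in DMSO and 0.746% to 0.751% in baicalin. When libraries were scaled by their totals alone, 32 members were higher and 10 lower. That scaling moved the median of all genes to −0.13 and the members' median to 0.14, which is 0.27 above it, and over all genes it gave 3472 higher and 5811 lower. The count of lower members was also less firm: DESeq2 called 4 lower, and so did edgeR without the second baicalin library. Over all genes these fits called 4100 and 4563 lower, against 4676 in the main fit.

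**Figure D1:**
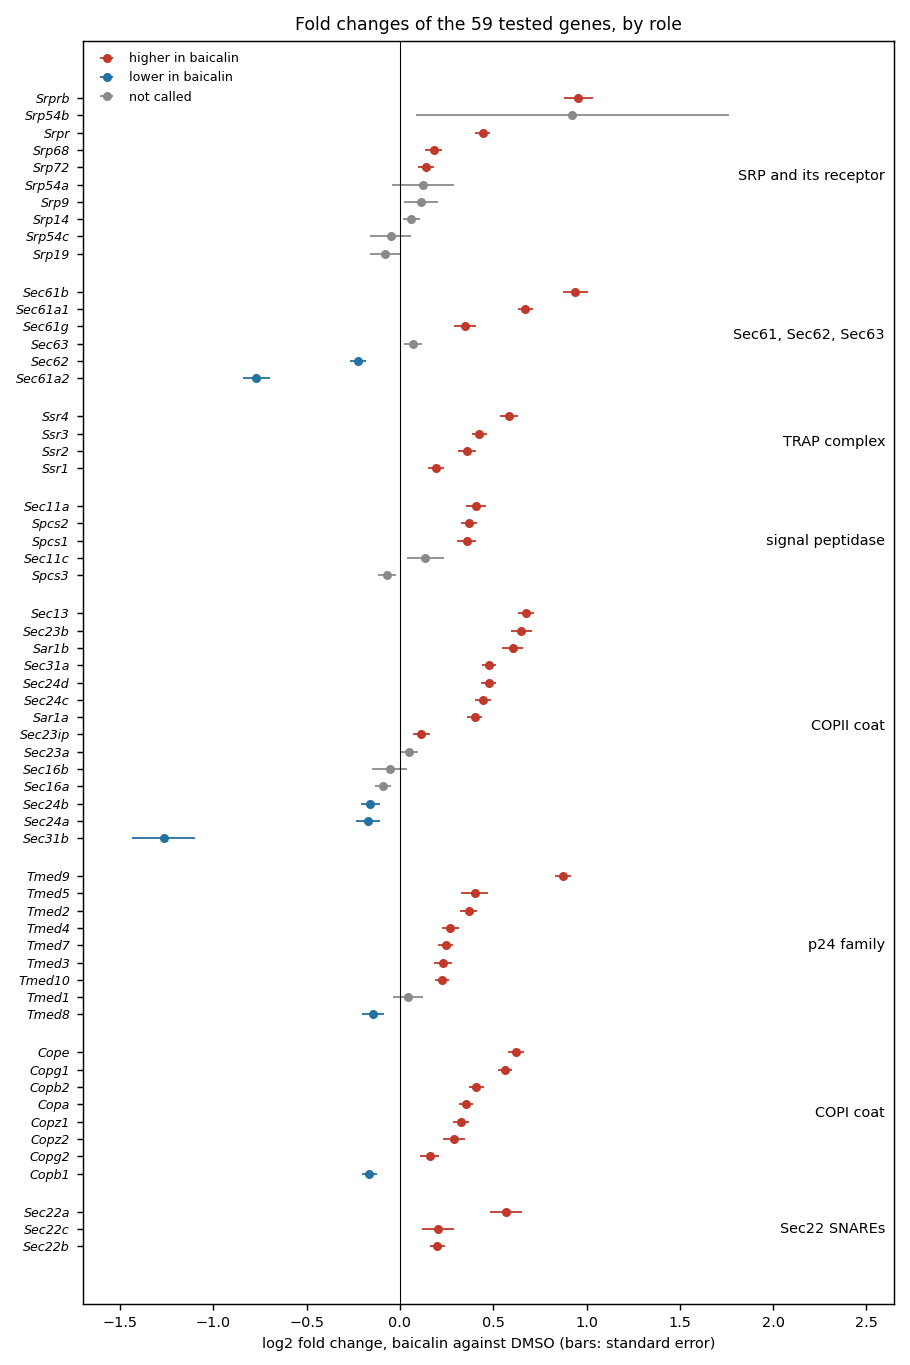
Log2 fold change of baicalin against DMSO for each of the 59 tested genes, grouped by role, with bars for the standard error. Most points lie right of 0, from 0.12 to 0.95 among the called higher genes, while Sec61a2 and Sec31b lie furthest left at −0.77 and −1.27; with libraries scaled by their totals alone, Sec23ip (0.12) moves to −0.012.

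Since targets of the unfolded protein response are often marked by short promoter elements, the 250 bases before each RefSeq transcription start (GRCm38.p6) were searched on both strands. The members had 56 such windows for 52 genes, and 9 members had none. The ER stress response element, CCAAT and CCACG separated by 9 bases, was found in none of them and in 0.113% of 32851 windows in all. ERSE-II, ATTGG and CCACG separated by 1 base, was likewise in none, against 0.0304% in all. Exact matches this rare over all windows are unlikely in 56 windows, so finding none does not show that the members lack such elements. The unfolded protein response element TGACGTGG, a motif bound by the Xbp1 and Atf6 family, was in 3 member windows (5.36%) and in 0.563% of all. These 3 sites are shown because their genes are the only ones among the 52 searched with such letters, in lower case with the motif in capitals, 5′ to 3′ on the strand of the gene. Copb1 carries the motif on the opposite strand, so its capitals read as the reverse complement.
Sec24d, chr3:123267460-123267487, plus strand: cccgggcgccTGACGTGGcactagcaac
Copb1, chr7:114254691-114254718, minus strand: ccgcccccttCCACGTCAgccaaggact
Sec16b, chr1:157506742-157506769, plus strand: tctgtgtggcTGACGTGGcacggcagtt
The motif's nearest base lies 19 to 37 bases before the start site, and each of these stretches overlaps an exon of a GENCODE M21 transcript. The genes went different ways: Sec24d was higher, Copb1 lower and Sec16b not called. A match of letters is a description and shows no binding.

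In the signal recognition particle group the receptor genes had the largest changes among those called. In this group of 10, 4 genes (40.0%) were higher, 6 not called and none lower, a share of higher genes near the background of 33.6% over all genes and 41.8% over genes with at least 10 CPM. The group's median was a log2 change of 0.13. Srprb encodes the membrane-anchored beta subunit of the receptor that docks the particle on the ER. Its level rose 1.94-fold, from 17.98, 19.96 and 17.2 CPM in the DMSO libraries to 34, 35.5 and 37.3 CPM in the baicalin libraries (log2 change 0.95 ± 0.078 SE, adjusted p = 7.95e-16). Srpr, the alpha subunit that contacts the particle, went from 168, 162 and 165 CPM to 236, 216 and 219.5 CPM, 1.36-fold higher (log2 change 0.44 ± 0.041 SE, adjusted p = 6.7e-14). The baicalin libraries lay above every DMSO library for both receptor genes. Among the proteins of the particle, Srp68 and Srp72, which form its large heterodimer, were higher by log2 fold changes of 0.18 and 0.14 (adjusted p = 0.000656 and 0.00309). The call of Srp68 was lost and its sign turned to −0.068 when trends with gene length and GC content were removed, and both calls were lost under scaling by library totals.

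Srp9 and Srp14, which pair to pause translation, were not called. Srp14 had the highest level of the group per length, 92.4 ± 2.94 FPKM (SD, n = 3) in DMSO and 97.4 ± 2.51 FPKM in baicalin. Its CPM values, 109, 106 and 113 in DMSO and 111, 114 and 118 in baicalin, overlapped (log2 fold change 0.062, adjusted p = 0.222), and with length and GC trends removed it was called lower (−0.15, adjusted p = 0.00209). Srp9 read 16.5, 16.8 and 16.9 CPM against 17.8, 16.4 and 20.2 CPM (log2 fold change 0.11, adjusted p = 0.279). Srp19, an RNA-binding protein of the particle, read 25.2, 24.4 and 23.7 CPM against 20.1, 25.1 and 24.2 CPM (log2 fold change −0.079, adjusted p = 0.403), and was called lower under scaling by library totals (−0.21, adjusted p = 0.0302). Srp54 is the GTPase that binds the signal sequence, and the mouse has near-identical copies of it side by side on chromosome 12, so that the split of reads among them is uncertain. Srp54b had 2.004, 9.55 and 1.32 CPM in DMSO and 5.12, 10.8 and 8.15 CPM in baicalin, with the second DMSO library within the range of the baicalin libraries, and was not called (log2 change 0.92 ± 0.84 SE, adjusted p = 0.388). Without that library it was called, at a log2 fold change of 2.28 (adjusted p = 0.000147). Srp54a and Srp54c were not called either, at log2 fold changes of 0.12 and −0.050 (adjusted p = 0.517 and 0.697). Summed over the copies, the level was 22.6, 33.7 and 24.8 CPM in DMSO and 30.5, 30.7 and 30.7 CPM in baicalin, so the second DMSO library also stood above the baicalin ones in the sum.

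In the Sec61 channel the main subunits rose and the second alpha gene fell. Of 6 genes 3 were higher, 2 lower and 1 not called, at a median log2 change of 0.21. The background was 33.6% higher and 34.1% lower over all genes tested, and 41.8% higher among genes with at least 10 CPM. The group's share of lower genes was thus near the background, and its share of higher genes rests on 3 genes. Sec61a1 encodes the pore itself and was at 35.04 ± 0.856 FPKM in DMSO and 56.4 ± 1.77 FPKM in baicalin (SD, n = 3). In CPM it read 232, 229 and 241 against 381, 362 and 376, 1.59-fold higher (log2 change 0.67 ± 0.039 SE, adjusted p = 9.56e-22). Sec61b, the small beta subunit, rose 1.92-fold, from 28.5, 27.7 and 30.7 CPM to 52.96, 54.1 and 59.8 CPM (log2 change 0.94 ± 0.065 SE, adjusted p = 1.44e-18). For both genes the groups did not overlap. Sec61g, the gamma subunit that clamps the channel, went from 41.4, 41.5 and 43.3 CPM to 57.4, 51.4 and 52.02 CPM (log2 change 0.35 ± 0.059 SE, adjusted p = 1.06e-06).

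Sec61a2 (ENSMUSG00000025816, chr2:5870987-5895432 in mm10) is the second gene for the alpha subunit. It fell from 38.1, 42.04 and 37.5 CPM in DMSO to 23.95, 23.2 and 21.8 CPM in baicalin, 1.71-fold lower (log2 change −0.77 ± 0.073 SE, adjusted p = 1.55e-13). All 3 baicalin libraries lay below all DMSO libraries, and the call held under each of the 18 alternative settings. Of its 4572 exon bases, 909 overlap exons of Nudt5 on the other strand, which had 69.0% as many reads and was not called (log2 fold change −0.090, adjusted p = 0.369). The sources used here do not state whether the counting kept strands apart. Sec62 and Sec63 assist the channel with proteins that arrive after translation. Sec62 was lower, at 165, 164 and 155 CPM against 143, 132 and 139.5 CPM (log2 change −0.22 ± 0.043 SE, adjusted p = 8.58e-06), a call lost with length and GC trends removed. Sec63 overlapped between groups at 101, 108 and 98.2 CPM against 109.8, 98.9 and 114 CPM (log2 fold change 0.071, adjusted p = 0.204). It was called higher without the second baicalin library (log2 fold change 0.14, adjusted p = 0.0135), with the length trend removed (0.26, adjusted p = 9.87e-06) and with length and GC trends removed (0.39, adjusted p = 4.15e-10).

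The translocon-associated protein complex sits beside Sec61 and helps some signal sequences to open it. All 4 of its genes were higher, against 33.6% of all genes tested, at a median log2 change of 0.39. Ssr3, the gamma subunit, had the highest level at 83.4 ± 2.34 FPKM in DMSO and 113 ± 4.19 FPKM in baicalin (SD, n = 3). Its CPM values were 344, 356 and 337 in DMSO and 448, 461 and 484 in baicalin (log2 change 0.43 ± 0.039 SE, adjusted p = 3.23e-14). Ssr4, the delta subunit, had the largest change, 1.498-fold, from 66.8, 65.1 and 68.4 CPM to 102, 100.3 and 97.4 CPM (log2 change 0.58 ± 0.048 SE, adjusted p = 1.22e-15). In both genes every baicalin library lay above every DMSO library. The alpha and beta subunits Ssr1 and Ssr2 rose by log2 fold changes of 0.19 and 0.36 (adjusted p = 5.02e-05 and 3.76e-09), and Ssr1 lost its call under scaling by library totals, Ssr2 with length and GC trends removed.

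Of the signal peptidase genes 3 of 5 were higher and 2 not called, at a median log2 change of 0.36. For comparison, 33.6% of all genes tested were higher, and 41.8% of those with at least 10 CPM. With only 5 genes, the count alone does not set the group apart from that background. Sec11a, a catalytic subunit, went from 49.9, 44.4 and 50.2 CPM to 65, 63.7 and 63.3 CPM, 1.33-fold higher (log2 change 0.41 ± 0.056 SE, adjusted p = 6.71e-09). Spcs2, an accessory subunit, read 112, 113 and 112 CPM against 142, 143 and 149.6 CPM (log2 change 0.37 ± 0.043 SE, adjusted p = 8.57e-11). Spcs1 had the highest level per length of the group, 43.5 ± 1.2 FPKM in DMSO and 56.3 ± 1.58 FPKM in baicalin (SD, n = 3), with a log2 fold change of 0.36 (adjusted p = 8.08e-09). Part of its exons overlap Glt8d1 on the other strand, which had 46.1% as many reads and fell (log2 fold change −0.54). The remaining genes overlapped between the groups. Sec11c, the alternative catalytic subunit, stood at 15.1, 13.9 and 16.1 CPM and 15.5, 18.8 and 15.2 CPM (log2 fold change 0.14, adjusted p = 0.227). Spcs3, which the enzyme needs for activity, stood at 90.4, 95.9 and 90.3 CPM and 82.7, 92.3 and 88.5 CPM (log2 fold change −0.069, adjusted p = 0.206). It was called lower under scaling by library totals (−0.20) and with the length trend removed (−0.15), and higher with length and GC trends removed (0.14).

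**Figure D2:**
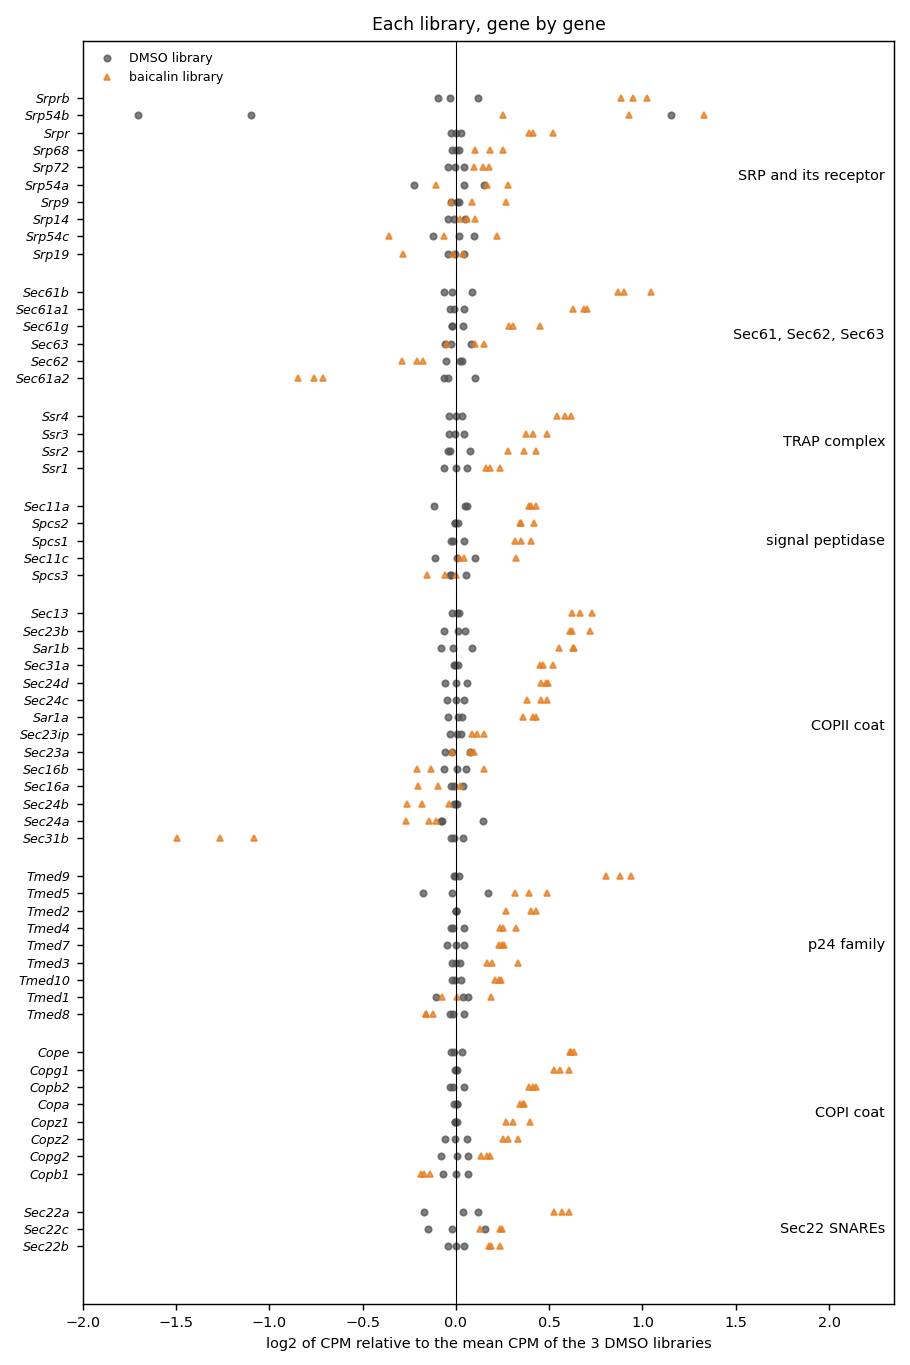
CPM of each library for each of the 59 tested genes, as the log2 ratio to the mean of the 3 DMSO libraries, with circles for DMSO and triangles for baicalin, grouped by role. For 38 genes all triangles lie right of all circles, where 35.1% of all genes tested had baicalin wholly above DMSO. For Srp54b the circles are spread more widely than the triangles, with the second DMSO library at 9.55 CPM.

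COPII genes went in both directions. Of the 14 genes 8 (57.1%) were higher, 3 (21.4%) lower and 3 not called, at a median log2 change of 0.26. Over all genes tested, 33.6% were higher and 34.1% lower. The coat starts with the GTPase Sar1, which draws in the inner Sec23 and Sec24 layer, and the outer Sec13 and Sec31 cage closes over it. Both Sar1 genes rose: Sar1a, at 55.7 ± 1.39 FPKM in DMSO and 74.3 ± 2.07 FPKM in baicalin, was the most abundant COPII gene per length in both groups. Sar1a read 201, 211 and 208 CPM in DMSO and 278, 276 and 265 CPM in baicalin (log2 change 0.40 ± 0.039 SE, adjusted p = 4.44e-13). Sar1b, the form needed for lipoprotein export in gut cells, rose 1.52-fold from 47.7, 42.5 and 44.4 CPM to 69.5, 69.5 and 65.9 CPM (log2 change 0.60 ± 0.055 SE, adjusted p = 4.6e-14). The baicalin libraries were above the DMSO libraries for both.

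In the outer cage, Sec13 had the largest rise of the COPII genes, 1.596-fold, from 102, 99.9 and 102 CPM to 168, 156 and 161 CPM (log2 change 0.67 ± 0.044 SE, adjusted p = 1.21e-19). Sec13 is also part of nuclear pores. Sec31a, the main partner of Sec13, went from 331, 329.8 and 335 CPM to 475, 458 and 454 CPM (log2 change 0.48 ± 0.037 SE, adjusted p = 1.82e-16). Sec31b (ENSMUSG00000051984, chr19:44516957-44545864 in mm10) is its far less abundant paralog and went the other way. It fell from 7.48, 7.15 and 7.23 CPM to 2.59, 3.45 and 3.03 CPM, 2.404-fold lower (log2 change −1.27 ± 0.17 SE, adjusted p = 3.35e-09), and its call held under each of the 18 alternative settings, at log2 fold changes from −1.45 to −0.69.

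In the inner layer, Sec23b, a GTPase activator of Sar1, rose 1.57-fold from 41.8, 38.6 and 40.8 CPM to 66.5, 62.3 and 61.7 CPM (log2 change 0.65 ± 0.057 SE, adjusted p = 1e-14). Its paralog Sec23a overlapped between the groups at 88.8, 83.2 and 81.04 CPM and 83.1, 90.1 and 88.8 CPM (log2 fold change 0.050, adjusted p = 0.369), and was called higher with length and GC trends removed (0.23, adjusted p = 2.02e-05). Sec24 proteins read the export signals of cargo, and by sequence Sec24a is closest to Sec24b and Sec24c to Sec24d. Sec24c read 136, 131 and 139.7 CPM in DMSO and 191, 177 and 186 CPM in baicalin (log2 change 0.44 ± 0.042 SE, adjusted p = 1.67e-13). Sec24d, whose promoter site is printed above, read 174, 167 and 181 CPM and 239, 243 and 245 CPM (log2 change 0.48 ± 0.040 SE, adjusted p = 2.55e-15). Both of these were higher with no overlap. Sec24a was lower, at 42.3, 49.4 and 42.5 CPM against 40.4, 37.1 and 41.5 CPM (log2 change −0.17 ± 0.066 SE, adjusted p = 0.0194). Sec24b was lower too, at 108, 107 and 107 CPM against 105, 89.4 and 94.6 CPM (log2 change −0.16 ± 0.049 SE, adjusted p = 0.00387). These falls were slight: without the second baicalin library the adjusted p was 0.175 for Sec24a and 0.117 for Sec24b, and without the second DMSO library it was 0.268 for Sec24a. DESeq2 called neither (adjusted p = 0.14 and 0.0521), and the sign of Sec24a turned to 0.084 with the length trend removed.

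Sec16 proteins organise the ER exit sites where the coat forms. Sec16a overlapped between the groups at 197, 194 and 203 CPM and 201, 172 and 185 CPM (log2 fold change −0.089, adjusted p = 0.0693). It was called lower without the first baicalin library (log2 fold change −0.14, adjusted p = 0.00295) and under scaling by library totals (−0.22, adjusted p = 1.48e-05). A stricter count filter and a replicate block also gave a lower call (adjusted p = 0.036 in each). With the length trend removed it was called higher (0.11, adjusted p = 0.032). Sec16b, with the promoter site printed above, was at 19.7, 20.3 and 18.7 CPM and 17.8, 16.9 and 21.7 CPM (log2 fold change −0.056, adjusted p = 0.604). Sec23ip, a phospholipase-like protein that binds Sec23, was higher by a log2 fold change of 0.12 (adjusted p = 0.0227), which scaling by library totals turned to −0.012 and which was not called without the first DMSO library (adjusted p = 0.0823).

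The p24 proteins are membrane adaptors that cycle with both coats and carry GPI-anchored cargo. Of 11 genes, Tmed11 had no read and Tmed6 at most 3 reads per library, and neither was tested. Of the 9 tested 7 (77.8%) were higher, 1 (11.1%) lower and 1 not called, at a median log2 change of 0.25. Over all genes tested, 33.6% were higher and 34.1% lower. Tmed9 had the largest rise, 1.83-fold, from 110.1, 112 and 109.8 CPM to 193, 212 and 203 CPM (log2 change 0.88 ± 0.043 SE, adjusted p = 1.01e-24). It also had the highest level per length in baicalin with Tmed4, at 60.01 ± 2.46 and 60.6 ± 1.75 FPKM (SD, n = 3), whereas in DMSO Tmed4 stood at 49.7 ± 1.44 and Tmed9 at 32.4 ± 0.338 FPKM. Tmed5 read 61.6, 70.3 and 55.3 CPM in DMSO and 77.8, 81.9 and 87.5 CPM in baicalin (log2 change 0.40 ± 0.072 SE, adjusted p = 0.000131). Some Tmed5 exon bases overlap Mtf2 on the other strand, which had 37.2% as many reads and fell (log2 fold change −0.64). Tmed2, the only beta-class p24 protein, and Tmed10, the delta-class one, rose by log2 fold changes of 0.37 and 0.23 (adjusted p = 4.4e-10 and 8.73e-07). Tmed3, Tmed4 and Tmed7 rose by 0.23, 0.27 and 0.25 on the log2 scale, of which Tmed3 lost its call with length and GC trends removed (log2 change 0.028, adjusted p = 0.603).

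Tmed8, a distant relative of the family, was lower at 44.1, 46.6 and 44.8 CPM against 40.5, 41.5 and 40.5 CPM, with no overlap (log2 change −0.15 ± 0.061 SE, adjusted p = 0.031). Its call was lost without each library in turn except the first DMSO one (adjusted p from 0.0568 to 0.127), under DESeq2 (adjusted p = 0.166) and with FPKM values, and its sign turned to 0.021 with length and GC trends removed. Tmed1 was not called, at 25.7, 23.3 and 26.2 CPM and 28.6, 25.1 and 23.8 CPM (log2 fold change 0.044, adjusted p = 0.643), and with length and GC trends removed it was called lower (−0.25, adjusted p = 0.00325). Its exons overlap those of the far more abundant Dnm2 on the other strand, so its counts are uncertain.

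COPI genes were nearly all higher. Of the 8 genes 7 (87.5%) were higher and 1 (12.5%) lower, against 33.6% and 34.1% of all genes tested. In all 8 the groups did not overlap, as in 70.2% of all genes tested, and the median log2 change was 0.34. Cope, the epsilon subunit, had the largest rise, 1.54-fold, from 111, 110.0 and 114 CPM to 171, 174 and 172 CPM (log2 change 0.62 ± 0.042 SE, adjusted p = 7.24e-19). It also had the highest level of the coat per length in baicalin, 52.2 ± 0.21 FPKM (SD, n = 3). Copg1, a gamma subunit that binds cargo tails, read 259, 259 and 260.5 CPM against 394, 382 and 374 CPM (log2 change 0.56 ± 0.038 SE, adjusted p = 6.18e-19). Copa and Copb2, which form the outer layer with Cope, rose by log2 fold changes of 0.36 and 0.41 (adjusted p = 2.92e-12 and 1.88e-13). Copa read 352, 348 and 352 CPM and 452, 449.6 and 444 CPM, and it shares exon bases with Ncstn, which had 35.6% as many reads and also rose (log2 fold change 0.49).

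Copb1, the beta subunit of the inner layer and the gene of the second printed promoter site, was the exception. The DMSO libraries read 199.7, 209 and 190.0 CPM and the baicalin libraries 177, 181 and 175 CPM, 1.12-fold lower (log2 change −0.16 ± 0.041 SE, adjusted p = 0.000454). With length and GC trends removed its sign turned to 0.045. Copg2, the second gamma gene, read 70.9, 68.1 and 64.1 CPM and 76.9, 74.2 and 75.9 CPM (log2 fold change 0.16, adjusted p = 0.00439), a call lost under scaling by library totals. Copz1, a zeta subunit, went from 135, 135 and 136 CPM to 179, 168 and 164 CPM (log2 change 0.33 ± 0.042 SE, adjusted p = 1.99e-09). Copz2 went from 40.8, 39.3 and 42.7 CPM to 48.7, 51.6 and 49.7 CPM (log2 change 0.29 ± 0.060 SE, adjusted p = 3.1e-05), a call lost with length and GC trends removed. The delta subunit Arcn1 had 225 ± 3.79 CPM in baicalin against 219 ± 0.673 CPM in DMSO (SD, n = 3), with no overlap. Its log2 fold change of 0.037 was not called in the main edgeR fit (adjusted p = 0.401). Scaling by library totals made it a lower call (−0.090, adjusted p = 0.0297). It was called higher with the length trend removed (0.41, adjusted p = 1.28e-13) and with length and GC trends removed (0.53, adjusted p = 4.38e-19).

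All 3 Sec22 genes were higher, against 33.6% of all genes tested, at a median log2 change of 0.20. Sec22b is the membrane fusion protein (SNARE) of vesicles between ER and Golgi and was the most abundant, at 32.1 ± 0.995 FPKM in DMSO and 37.3 ± 0.802 FPKM in baicalin (SD, n = 3). It read 130.5, 123 and 127 CPM and 144, 144 and 149.6 CPM (log2 change 0.20 ± 0.043 SE, adjusted p = 4.86e-05), a call lost under scaling by library totals. Sec22a, a related protein without the SNARE motif, rose 1.48-fold from 17.4, 18.4 and 15.1 CPM to 25.2, 24.4 and 25.8 CPM (log2 change 0.57 ± 0.086 SE, adjusted p = 8.48e-08). Sec22c overlapped between the groups at 20.9, 16.9 and 18.5 CPM and 20.5, 22.3 and 22.1 CPM (log2 change 0.20 ± 0.088 SE, adjusted p = 0.0359). It was not called by DESeq2 (adjusted p = 0.114), nor without DMSO library 2 or 3 or baicalin library 2 or 3 (adjusted p from 0.0734 to 0.19).

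Several subunits come as pairs of paralogs that can stand in for one another in the same complex, and their balance was compared by FPKM, which allows for gene length. The log2 ratio of the second gene to the first was taken in each library, and the groups were set against each other by a two-sided exact permutation test, in which 3 against 3 cannot go below p = 0.1. In 6 of 10 pairs the ratios did not overlap between the groups (exact p = 0.1, adjusted over the 10 pairs 0.167). None can therefore pass the threshold in this design. For comparison, 70.2% of all single genes tested did not overlap, and no such share was computed for ratios of other gene pairs. Sec61a2 made up 19.5%, 21.2% and 18.6% of the Sec61a1 and Sec61a2 total in DMSO and 8.47%, 8.60% and 7.88% in baicalin, a difference of −1.44 in the mean log2 ratio. Sec31b made up 4.31%, 4.15% and 4.14% of its pair in DMSO and 1.08%, 1.48% and 1.32% in baicalin, a difference of −1.76. In both pairs the abundant gene was higher in baicalin and the scarce one lower.

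In the Sec23 pair the shift went toward the scarcer gene. Sec23b made up 26.6%, 26.3% and 27.9% in DMSO and 38.1%, 34.7% and 34.8% in baicalin, a log2 ratio difference of 0.60. Sar1b went from 39.3% ± 2.04 (SD, n = 3) to 42.7% ± 0.167, a difference of 0.21. Copg2 had 35.9% ± 1.25 of its pair in DMSO and 29.8% ± 0.51 in baicalin, a difference of −0.40, and Sec11c had 31.8% ± 0.671 and 27.8% ± 2.49, a difference of −0.28. The length behind the deposited FPKM of Sec11c is 3084 bases where GENCODE M21 has 6808 exon bases, and by the latter its shares were 17.4% ± 0.445 and 14.9% ± 1.58, with the same difference in log2 ratio. For the other 58 tested members both lengths lay within 1% of each other. The shares of Sec24b beside Sec24a, Sec24d beside Sec24c, Sec16b beside Sec16a and Copz2 beside Copz1 overlapped between the groups, with mean log2 ratios that differed by −0.035 to 0.034 (exact p from 0.5 to 1). Sec24b had 81.0% ± 1.37 and 81.1% ± 0.982, and Copz2 33.3% ± 0.824 and 32.8% ± 1.48.

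**Figure D3:**
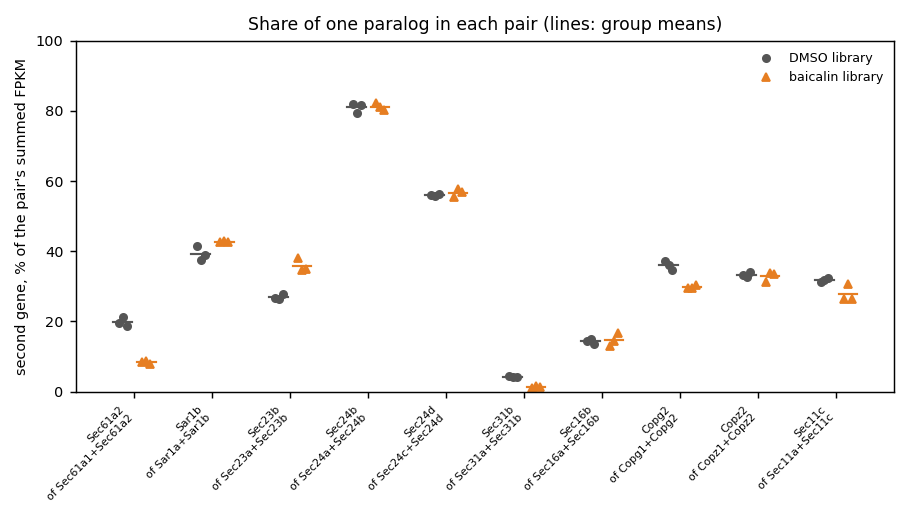
Share of the second gene in the summed FPKM of each paralog pair, in percent, for each DMSO and baicalin library, with lines for group means. Sec61a2 drops from 19.8% to 8.32% and Sec23b climbs from 26.9% to 35.9%, while Sec24b stays near 81% in both groups.

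Genes that work beside these complexes were taken as fixed lists by function, chosen with earlier results of these data known. In each list more genes were called higher than lower. The share called higher ran from 42.9% to 84.6%, against 33.6% of all genes tested and 41.8% of those with at least 10 CPM. Oligosaccharyltransferase, which adds N-glycans at the channel, had 9 of 12 genes higher and 2 lower (median log2 fold change 0.39). Krtcap2 (log2 fold change 0.86, adjusted p = 2e-22), Dad1 (0.72) and Rpn2 (0.70) rose the most, while Tmem258 (−0.26) and Magt1 (−0.11) fell, of which DESeq2 did not call Magt1 (adjusted p = 0.192) and the removal of length and GC trends turned its sign to 0.15. Of 10 accessory proteins of the translocon 7 were higher and none lower (median 0.32). Serp1, a stress-linked partner of Sec61, had 299 ± 7.23 CPM in baicalin against 149 ± 5.34 CPM in DMSO (SD, n = 3), 2.001-fold higher (adjusted p = 2.08e-28), and Nomo1, part of a multipass translocon, rose from 94.1 ± 0.679 to 183 ± 5.92 CPM (log2 fold change 0.96). The ER membrane complex, which inserts membrane proteins without Sec61, had 8 of 10 genes higher and 1 lower (median 0.45), with Emc10 at a log2 fold change of 0.84 and Emc2 at −0.53. Tail-anchor insertion, a route that bypasses both, had 3 of 7 genes (42.9%) higher and none lower. That share of higher genes is near the 41.8% among genes with at least 10 CPM. The median of the list was 0.10, which scaling by library totals turned to −0.023.

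Among 16 regulators and cargo receptors of COPII 13 were higher and 2 lower (median log2 fold change 0.30). Mcfd2, Surf4 and Lman2, which load cargo at the ER, rose by 0.79, 0.69 and 0.59 on the log2 scale, and Preb, the exchange factor of Sar1, by 0.36 (adjusted p = 3e-08). Mia3, which helps collagen to leave the ER, was lower (log2 fold change −0.16, adjusted p = 0.00106), as was Ergic2 (−0.42), whose call was lost with length and GC trends removed. In these libraries Col1a1 and Col1a2 were lower (1.47-fold each) and Col3a1 was higher (1.36-fold). Of 14 regulators of COPI and KDEL receptors 11 were higher and 1 lower (median 0.23). Kdelr3 and Kdelr2, which return ER chaperones, rose by log2 fold changes of 0.93 and 0.53, Arf1, the GTPase that recruits COPI, by 0.61, and Arfgap3 fell (−0.14). ER-Golgi SNAREs and tethers had 12 of 18 higher and 3 lower (median 0.23), with Bet1l at 0.60 and Gosr1 at −0.28.

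Clathrin and its AP1 and AP2 adaptors, a coat of other compartments, had 8 of 12 genes higher and 3 lower (median log2 fold change 0.19), with Ap1s1 at 0.67 and Ap1g1 at −0.47. Their summed level was 2254 ± 15 CPM in DMSO and 2335 ± 78.6 CPM in baicalin (SD, n = 3), a ratio of 1.04 where COPI had 1.28 and COPII 1.25. Cltc alone held 797 ± 15.3 CPM of that sum in DMSO and 705 ± 36.8 CPM in baicalin. Its log2 fold change of −0.18 turned to 0.13 with length and GC trends removed. By count, 66.7% of these genes were higher, against 87.5% in COPI, 57.1% in COPII and 33.6% of all genes tested. The difference between these coats was not tested. Sensors and factors of the unfolded protein response and the CREB3 family had 11 of 13 genes higher and 2 lower (median 0.52). Hspa5, the main ER chaperone, rose from 763 ± 16.4 CPM in DMSO to 1769 ± 45.6 CPM (SD, n = 3), a log2 fold change of 1.21 (SE 0.037, adjusted p = 1.19e-33). Atf4 rose by 1.15 and Xbp1 by 0.93 on the log2 scale. Of the factors known to drive COPII genes in collagen-secreting cells, Creb3l1 rose (log2 fold change 0.49, adjusted p = 1.33e-13) and Creb3l2 fell (−0.14, adjusted p = 0.0052), the latter a call lost with the length trend removed (adjusted p = 0.854). Mbtps2, a protease that releases Atf6 and the CREB3 factors from the membrane, fell too (−0.24, adjusted p = 0.000747), a sign that turned to 0.30 with length and GC trends removed. Counts of spliced Xbp1 were not analysed here.

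**Figure D4:**
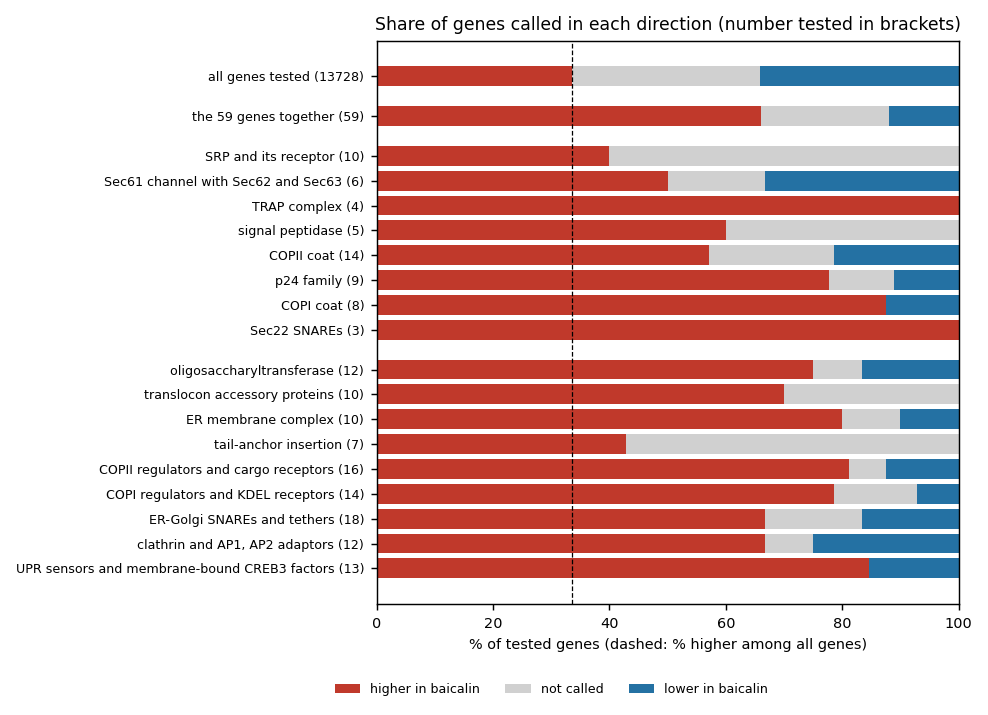
Percent of tested genes called higher (red), not called (grey) and called lower (blue) in baicalin, for all 13728 genes, for the 59 genes together, for each role group and for each related list, with the number tested in brackets and a dashed line at the 33.6% higher among all genes. The red part runs from 40.0% in the signal recognition particle group and 42.9% in the tail-anchor list, both near the 41.8% higher among genes with at least 10 CPM, to 100% in the translocon-associated protein and Sec22 groups; under scaling by library totals the median of the tail-anchor list turns from 0.10 to −0.023.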

How the data were processed

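Per the labels' protocols, libraries were made from poly-A RNA with a NEBNext Ultra kit. The deposited counts are whole reads per gene from featureCounts 1.5.0-p3, from which the authors derived the FPKM values with gene length, per the series design text. The submitters' processing notes name the build mm10. No aligner, annotation or strand setting is given in the sources used here. All 6 samples had both columns, and 0 per-sample columns were unmatched. Coordinates and exon lengths came from GENCODE M21, which holds 54495 of the 54532 gene identifiers.

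The test was edgeR's quasi-likelihood F test (version 4.0.16 under R 4.3.3, robust) on the counts, with treatment alone in the model, after filterByExpr and TMM scaling (factors 0.945 to 0.967 in baicalin, 1.04 to 1.05 in DMSO), and p-values were adjusted by Benjamini-Hochberg over 13728 genes at 0.05. The biological coefficient of variation was 4.61%. The standard error is the unshrunk coefficient divided by the square root of the F value. The script was tested on simulated data with few changed genes, balanced in direction, and a common dispersion. That setting differs from these data, in which 67.7% of genes tested were called, so it does not measure the error of the calls here. The alternatives were other scalings and filters, DESeq2 1.42.0, limma 3.58.1 (voom on counts, trend on log2 FPKM with a pseudocount of 1 or 0.1), removal of trends with length and GC content (lowess, span 0.3), a replicate block and each library left out. Replicates differed beyond counting noise (chi-square per degree of freedom 2.83 to 4.35).

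The members, role groups and related lists were chosen with earlier results of these data known. Full values are given, by rule, for the most abundant member of each role group by FPKM, the largest called changes of at least 5 CPM, members not called or called against their group, and paralog pairs. From each related list the largest called changes and those against its direction were eligible, with 6 fixed genes (Hspa5, Xbp1, Creb3l1, Creb3l2, Preb and Arcn1), and the text names fewer. Atf4, Col1a1, Col1a2 and Col3a1 come from the lists of factors and markers. Promoter windows are from RefSeq (GRCm38.p6).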

Additional observations from a re-analysis of the deposited data

How the results depend on the processing

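Over 18 alternative settings, 29 of the 39 higher members, 2 of the 7 lower ones (Sec61a2 and Sec31b) and 5 of the 13 not called kept their call in each. The number of higher members ran from 32 (library totals alone) to 40 (length trend removed). The number of lower ones was 4 under DESeq2 and in each of the fits of log2 FPKM (pseudocount 1, pseudocount 0.1, no filter). It ran from 4 to 7 with 1 library left out. Lower calls over all genes fell too, from 4676 in the main fit to 4100 under DESeq2. The fits of log2 FPKM, in the same order, gave 3547, 3519 and 4118. The members' median log2 fold change was 0.14 with library totals alone, 0.30 without a low-count filter, 0.30 with length and GC trends removed, and from 0.27 to 0.30 with 1 library left out. The paralog pairs without overlap numbered 6 with reads per exon length and 6 or 7 with 1 library left out, the added pair being Sec24d beside Sec24c without the first baicalin library. Among genes called in either of the fits compared, removing length and GC trends turned the sign of Copb1 (0.045), Sec24a (0.21), Srp14 (−0.15), Srp68 (−0.068), Tmed1 (−0.25), Tmed8 (0.021), Spcs3 (0.14), Magt1 (0.15), Sgta (−0.041), Scfd1 (0.44), Cltc (0.13), Mbtps2 (0.30) and the tail-anchor median (−0.041). Removing the length trend alone turned Sec16a (0.11), Sec24a (0.084) and Scfd1 (0.16). Library totals alone turned Sec23ip (−0.012), Arcn1 (−0.090) and the tail-anchor median (−0.023). A further 17 changes of sign, in 10 genes, concerned values called in neither fit. The cause was not tested. Across genes, which are not independent, fold change and length had a Spearman's rho of −0.16 over the 59 members and −0.19 over all genes, and fold change and GC content 0.14 and 0.31. The labels number the samples of both groups alike, but same-numbered samples had correlations of only −0.0024 to 0.037 in their deviations, so the numbers were not taken as pairs, and not every library correlated best with its own number. With a replicate block 39 members were higher and 8 lower, Sec16a being the added call. Depth limits Tmed6 and Tmed11, which were too low to test, and Sec31b, at under 8 CPM, has the widest standard error of the called members.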
